A study of Homo sapiens with 6 samples.

Results

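The genes followed here are 10 components of the circadian clock: CLOCK, PER1, PER2, PER3, CRY1, CRY2, NR1D1, NR1D2, DBP and BHLHE40. Their rows were found by symbol, and all 10 were present among the 60835 loci of the deposited table. The cells were ARPE-19, an established human retinal pigment epithelium line labelled as wild type. Of 6 libraries, 3 came from cells held for 72 h in high glucose medium and 3 from cells held for 72 h in normal glucose medium. The labels present the high glucose cultures as a cell culture model of diabetes in which cells are lost. They give neither glucose concentration, nor a time of day or a synchronizing step. Nothing says that the replicates were grown separately, so the p-values speak only of the spread among the 6 libraries, part or all of which may be technical. In bulk RNA, fewer cells of a type and less RNA per cell cannot be told apart.

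The clock is a feedback loop of transcription. CLOCK, or its relative NPAS2, pairs with BMAL1 and switches on genes that carry an E-box in their promoters, among them the PER and CRY genes. PER and CRY proteins return to the nucleus and block that pair. A second loop runs through NR1D1 and NR1D2 (REV-ERB alpha and beta), which repress BMAL1 through an element that ROR receptors use to activate it. DBP activates and NFIL3 represses genes with a D-box, and BHLHE40 competes at E-boxes. Retinal pigment epithelium carries a clock of this kind in mammals.

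Each library held 81616741 to 87748820 counts. On the first principal component (49.7% of the variance) the high glucose libraries lay between -84.1 and -79.2 and the normal glucose libraries between 49.9 and 105.8. On the second (18%), normal glucose 3 lay at 107.1, apart from the other 5 libraries at -44 to -6.6, so values without it are given for the clock genes and for the called genes named from the lists. The summed level of 14 retinal pigment epithelium markers was 2339 to 2476 CPM (counts scaled to the TMM library size) in high glucose and 790 to 1270 CPM in normal glucose, mainly from KRT8 and KRT18. These 2 keratin genes rose (log2 1.66 and 1.88, edgeR adjusted p = 0.0152 and 0.00636), while BEST1, a chloride channel gene of this tissue, fell 4.61-fold (adjusted p = 0.0113). Without high glucose 1 or 2 no retinal marker was called lower. Only 1 was called higher without any 1 high glucose library or normal glucose 1. Without normal glucose 3, 3 were called higher and 2 lower. The median log2 change over the 10 markers tested was -0.28. It was above 0 without normal glucose 3 (0.26 over 11 tested) and with loci of any count kept (0.058 over 14). In the other fits it was below 0. RPE65, the visual cycle enzyme that defines the mature tissue, was at or near 0 in all 6 libraries, and TYR and DCT had no counts in normal glucose. The sum of 11 fibroblast markers was 273 to 276 CPM in high glucose and 221 to 331 CPM in normal glucose, with a median log2 change of -0.38. PDGFRB averaged 161 CPM in high and 101 CPM in normal glucose. PDGFRA, in a locus joined with FIP1L1 and AC058822, averaged 47.5 and 45.2 CPM. The median was above 0 without normal glucose 1 (0.23), with the replicate number as a block (0.072), with voom weights (0.073) and with log2(FPKM + 0.1) (0.10). It was below 0 in the other fits. Of the fibroblast markers, PDGFRB rose (log2 0.68, edgeR adjusted p = 0.00572), while COL1A1 (log2 -2.49, adjusted p = 0.0302) and TWIST1 (log2 -0.89, adjusted p = 0.0203) fell. COL1A1 ran from 12.9 to 86.4 CPM in normal glucose. No fibroblast marker was called lower with the replicate number as a block, or without any 1 library other than normal glucose 3. The part of these markers in the results below was not tested.

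Both REV-ERB genes and CRY1 fell in high glucose. NR1D2 fell 3.78-fold, NR1D1 2.23-fold and CRY1 1.88-fold. These 3 of the 10 genes (30%) passed edgeR's quasi-likelihood test at a Benjamini-Hochberg adjusted p under 0.05, which is meant by "called" below. Of 25025 loci tested, 19.6% were called (9.75% higher and 9.86% lower), and of the 13786 with a protein-coding transcript 25.5% were called (13.1% higher and 12.4% lower). The members' share is thus near that of coding loci, and no test was made over the set. No member was called higher in this edgeR fit, although CRY2 had an unadjusted p under 0.05 in that direction. CRY2 was called higher under 6 of 18 alternative settings, among them DESeq2 and other edgeR fits. The groups did not overlap for 6 members, 5 lower and 1 higher in high glucose, where 42.3% of all tested loci (20.5% lower, 21.8% higher) and 49.5% of coding loci (23.6% lower, 25.9% higher) did not overlap. In the deposited FPKM, CLOCK overlapped and BHLHE40 did not, which gave 4 members lower and 2 higher (a check chosen after seeing the data). The median log2 change was -0.43 over the members and -0.0042 over all tested loci.

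**Figure D1:**
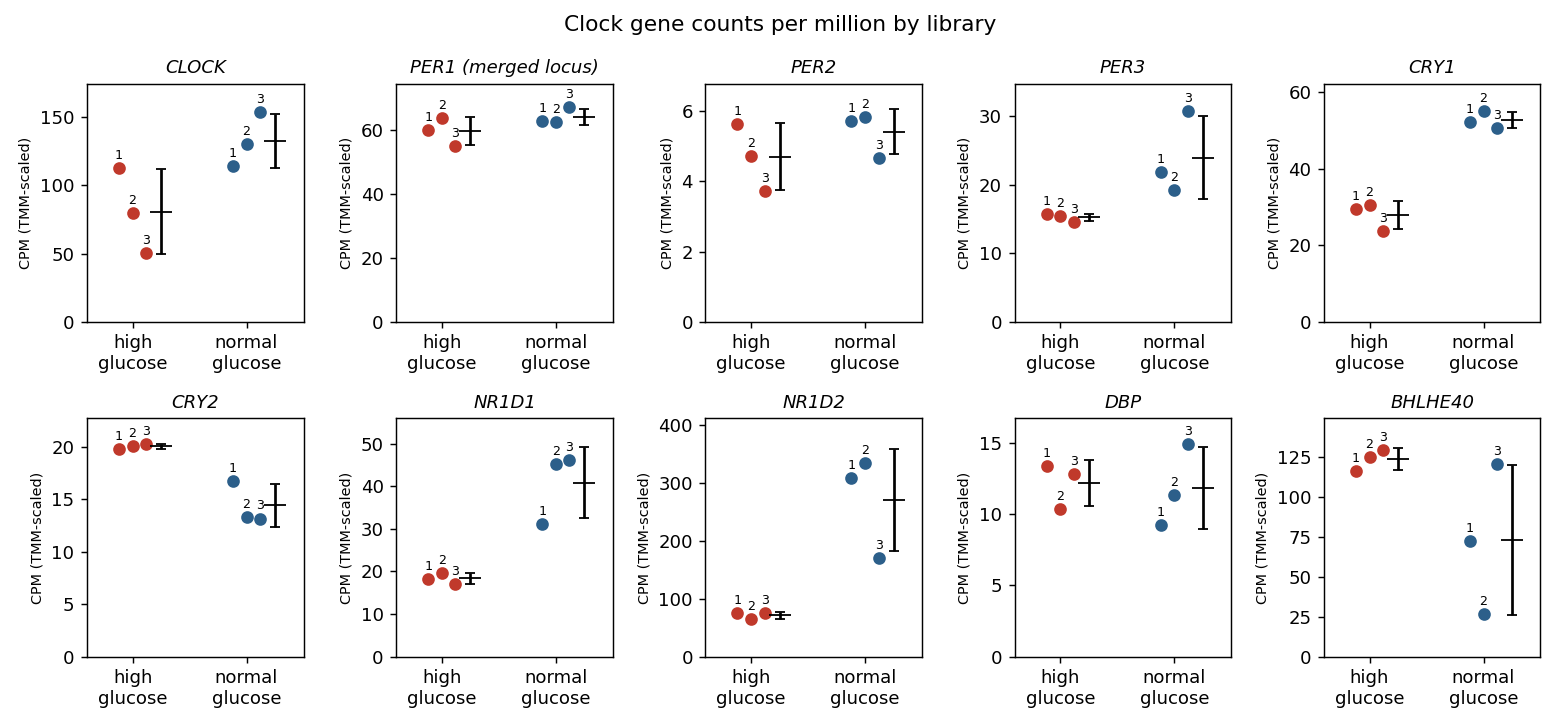
TMM-scaled CPM of each clock gene (vertical axes, starting at 0) in the 3 high glucose libraries (red) and the 3 normal glucose libraries (blue). Numbers mark the library and the black marks give mean ± SD. NR1D2, NR1D1 and CRY1 sat lower in every high glucose library than in any normal glucose library, while BHLHE40 varied 4.54-fold within normal glucose.

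The REV-ERB genes encode nuclear receptors that bind haem and repress transcription. NR1D2 (chr3:23945286-23980617, plus strand, coordinates as the table gives them) had 75.3, 64.6 and 75.1 CPM in high glucose 1, 2 and 3, against 308, 334 and 169 CPM in normal glucose 1, 2 and 3. All high glucose libraries lay below all normal glucose libraries, and normal glucose 3 was the nearest to them. The means were 71.7 ± 6.10 CPM in high glucose and 271 ± 88.5 CPM in normal glucose (SD, n = 3 each). The log2 change was -1.92 (SE 0.252, edgeR adjusted p = 0.0052), and it was -2.16 without normal glucose 3 (adjusted p = 0.000179). NR1D1 (chr17:40092793-40100589, minus strand) had 18.3, 19.7 and 17.1 CPM in high glucose, against 31.2, 45.4 and 46.1 CPM in normal glucose. Its groups did not overlap either, and here normal glucose 1 was the nearest. The means were 18.4 ± 1.31 CPM in high glucose and 40.9 ± 8.40 CPM in normal glucose (SD, n = 3 each), a log2 change of -1.15 (SE 0.176, edgeR adjusted p = 0.0077). Leaving out normal glucose 3 gave -1.06 (adjusted p = 0.00752). Both genes were called under each of the 18 alternative settings.

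Both REV-ERB loci run into a neighbour on the other strand, and nothing states that strand was used in counting, so reads of the overlap cannot be assigned. THRA, the thyroid hormone receptor alpha gene, shares 1075 bases with NR1D1. It had 54.7 ± 3.23 CPM in high glucose and 56.6 ± 22.3 CPM in normal glucose (SD, n = 3 each), a log2 difference of -0.05 (edgeR adjusted p = 0.915). Without normal glucose 3 THRA was called higher, with a log2 change of 0.32 (adjusted p = 0.0447), opposite in sign to NR1D1. NKIRAS1, a Ras-like inhibitor of NF-kappaB signalling, shares 3803 bases with NR1D2. Its level was 36.7 ± 12 CPM in high glucose and 45.3 ± 2.74 CPM in normal glucose (SD, n = 3 each), a log2 difference of -0.30 (edgeR adjusted p = 0.435).

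The promoters of these genes are where the loops meet, so the RefSeq windows (GRCh38.p14, 250 bases before to 50 after the start) of the 3 called genes are shown with that of CRY2, the paralog of CRY1. Capitals mark matches on either strand to CACGTG (E-box), TTATGNAA (D-box), TAGGTCA (ROR and REV-ERB element) or TGACG (the core of the cAMP response element, CRE). The NR1D1 window holds no match. NR1D2 and CRY2 have 2 windows each, and the one with more matches is shown.
NR1D2, second start, chr3:23945871-23946170, plus strand: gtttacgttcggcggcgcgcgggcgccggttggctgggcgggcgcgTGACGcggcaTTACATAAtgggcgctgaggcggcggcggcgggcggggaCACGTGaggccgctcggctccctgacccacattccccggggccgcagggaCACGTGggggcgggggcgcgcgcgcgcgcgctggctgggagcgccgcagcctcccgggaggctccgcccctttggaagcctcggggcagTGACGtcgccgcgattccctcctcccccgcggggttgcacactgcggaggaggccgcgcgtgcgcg
NR1D1, chr17:40100540-40100839, minus strand: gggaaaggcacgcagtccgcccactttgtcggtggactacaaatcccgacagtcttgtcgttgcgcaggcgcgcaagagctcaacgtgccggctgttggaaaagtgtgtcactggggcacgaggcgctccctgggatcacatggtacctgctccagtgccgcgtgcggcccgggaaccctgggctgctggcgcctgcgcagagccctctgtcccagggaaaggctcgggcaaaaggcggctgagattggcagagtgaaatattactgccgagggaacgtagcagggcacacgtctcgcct
CRY1, chr12:107093500-107093799, minus strand: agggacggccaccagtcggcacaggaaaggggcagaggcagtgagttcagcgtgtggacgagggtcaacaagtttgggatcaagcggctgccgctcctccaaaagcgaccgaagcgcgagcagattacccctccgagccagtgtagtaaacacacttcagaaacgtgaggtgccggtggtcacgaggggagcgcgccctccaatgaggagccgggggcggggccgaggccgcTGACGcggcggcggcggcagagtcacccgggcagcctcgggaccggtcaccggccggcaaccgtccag
CRY2, second start, chr11:45847225-45847524, plus strand: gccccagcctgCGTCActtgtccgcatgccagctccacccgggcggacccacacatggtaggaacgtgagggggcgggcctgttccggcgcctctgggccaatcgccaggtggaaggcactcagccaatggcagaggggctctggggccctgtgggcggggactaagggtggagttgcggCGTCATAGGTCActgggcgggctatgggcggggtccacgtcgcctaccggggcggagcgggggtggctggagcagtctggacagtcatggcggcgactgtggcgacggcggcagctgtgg

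In the NR1D2 window, E-boxes begin at positions -155 and -105 from the RefSeq start, a D-box at -194 on the other strand, and TGACG at -204 and -16. CRY1 has TGACG at -18. CRY2 has TAGGTCA at -65, next to a TGACG on the other strand at -70, and another at -239. RefSeq gives 14 windows for the 10 members. An E-box was in 3 of the 14 windows, against 7.26% of all 35116 promoter windows, and a D-box in 3, against 3.3%. TAGGTCA was in 1 window (1.85% of all) and TGACG in 7 (24.6%). The palindromic CRE, TGACGTCA, which contains TGACG, and the palindromic glucocorticoid response element were in 0 of the 14 (1.85% and 0.0228% of all windows). Matches describe letters in these windows and say nothing of factor binding.

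The cryptochromes CRY1 and CRY2 are the strongest repressors of the CLOCK and BMAL1 pair. CRY1 (chr12:106991364-107093549, minus strand) had 29.6, 30.5 and 23.8 CPM in high glucose, against 52.3, 55.0 and 50.7 CPM in normal glucose. The high glucose libraries all lay far below the normal glucose ones. Its means were 27.9 ± 3.62 CPM in high glucose and 52.7 ± 2.16 CPM in normal glucose (SD, n = 3 each), with a log2 change of -0.91 (SE 0.131, edgeR adjusted p = 0.00647). Without normal glucose 3 it was -0.94 (adjusted p = 0.0042), and it was called under all 18 alternatives. CRY2 (chr11:45847118-45883247, plus strand) had 19.8, 20.1 and 20.3 CPM in high glucose, against 16.7, 13.3 and 13.2 CPM in normal glucose. Every high glucose library lay above every normal glucose library, but the difference was not called, with a log2 value of 0.47 (SE 0.143, edgeR adjusted p = 0.058). CRY2 passed the threshold under 6 of 18 alternatives, among them DESeq2 (adjusted p = 0.0182) and the fit without normal glucose 1 (log2 0.60, adjusted p = 0.0438). It was 0.41 without normal glucose 3 (adjusted p = 0.0644).

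The balance of the cryptochromes was compared within each library, where scaling cancels. The log2 ratio of CRY1 to CRY2 was 0.58, 0.60 and 0.23 in high glucose, against 1.64, 2.04 and 1.95 in normal glucose. The mean ratio was 0.47 ± 0.207 in high glucose and 1.88 ± 0.209 in normal glucose (SD, n = 3 each), a difference of -1.41. A 2-sided exact permutation test gave p = 0.1, the smallest that 20 splits of 3 against 3 allow, and 0.25 after Benjamini-Hochberg adjustment over the 5 paralog ratios compared. Leaving out any 1 library gave differences of -1.52 to -1.29. The log2 ratio of NR1D1 to NR1D2 was -2.04, -1.71 and -2.14 in high glucose, against -3.30, -2.88 and -1.88 in normal glucose. These overlapped through normal glucose 3, and the difference was 0.72 (exact p = 0.3, adjusted 0.5), or 1.13 without that library.

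The period genes encode the partners that carry cryptochromes into the nucleus and that casein kinases mark for destruction. None of the 3 was called, while 1 (PER3) had an unadjusted p under 0.05 and was called by DESeq2. PER3 (chr1:7784320-7845177, plus strand) had 15.7, 15.4 and 14.6 CPM in high glucose, against 21.8, 19.3 and 30.8 CPM in normal glucose. All high glucose libraries were lower than all normal glucose libraries, of which normal glucose 3 was the highest. The log2 value was -0.65 (SE 0.192, edgeR adjusted p = 0.0533). It passed the threshold under 8 of 18 alternatives, including DESeq2 (adjusted p = 0.0147) and, with a smaller log2 of -0.43, the fit without normal glucose 3 (adjusted p = 0.0355). PER2 (chr2:238244044-238290102, minus strand) was the least abundant member, with 5.64, 4.73 and 3.73 CPM in high glucose, against 5.71, 5.84 and 4.67 CPM in normal glucose. The groups overlapped, at a log2 difference of -0.20 (SE 0.216, edgeR adjusted p = 0.559), or -0.30 without normal glucose 3. Its counts per library were 307 to 503 in high glucose and 388 to 501 in normal glucose.

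PER1 could not be read on its own. The table joins it in 1 locus (chr17:8140472-8176399, minus strand) with VAMP2, TMEM107, MIR6883, SNORD118 and AC129492, so its value may hold reads of those genes. That locus had 59.9, 63.7 and 55.0 CPM in high glucose, against 62.6, 62.4 and 67.0 CPM in normal glucose. The groups overlapped, with a log2 difference of -0.10 (SE 0.104, edgeR adjusted p = 0.528), or -0.07 without normal glucose 3. The log2 ratio of the PER1 locus to PER3 was 1.96 ± 0.0716 in high glucose and 1.44 ± 0.293 in normal glucose (SD, n = 3 each), without overlap (exact permutation p = 0.1, adjusted 0.25). The ratios of PER1 to PER2 and of PER2 to PER3 overlapped between groups (differences 0.11 and 0.41, exact permutation p = 0.8 and 0.4, adjusted 0.8 and 0.5). The RefSeq window of PER1 is shown because it holds an E-box at -173 and a D-box at -30.
PER1, chr17:8152355-8152654, minus strand: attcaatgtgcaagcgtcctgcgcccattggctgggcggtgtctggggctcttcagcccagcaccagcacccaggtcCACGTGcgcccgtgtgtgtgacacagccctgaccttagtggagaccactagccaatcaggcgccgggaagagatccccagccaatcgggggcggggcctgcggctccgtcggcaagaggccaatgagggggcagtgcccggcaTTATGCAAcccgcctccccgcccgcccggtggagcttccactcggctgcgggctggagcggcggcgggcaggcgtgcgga

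CLOCK, the activator that also acetylates histones, spread widely among the high glucose libraries. It had 112, 79.6 and 50.2 CPM in high glucose 1, 2 and 3, against 114, 130.4 and 153 CPM in normal glucose 1, 2 and 3. The groups did not overlap on this scale, but high glucose 1 lay next to normal glucose 1, and in the deposited FPKM it lay above it (8.11 against 7.93). The log2 value was -0.72 (SE 0.280, edgeR adjusted p = 0.118), not called, and ran from -0.46 without high glucose 3 to -1.03 without high glucose 1. Without normal glucose 3 it was -0.60 (adjusted p = 0.209). CLOCK (chr4:55427903-55546909, minus strand) shares 25495 bases with TMEM165 on the other strand, whose log2 difference was 0.04 (edgeR adjusted p = 0.907). RN7SKP30, a pseudogene of a structural RNA within the CLOCK locus, was at 0.0336 to 0.146 CPM in high glucose and 0.289 to 0.323 CPM in normal glucose (edgeR adjusted p = 0.136).

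DBP, a D-box activator widely used as a readout of clock output, had 13.4, 10.3 and 12.8 CPM in high glucose, against 9.24, 11.4 and 14.9 CPM in normal glucose. Its groups overlapped fully, with a log2 difference of 0.04 (SE 0.213, edgeR adjusted p = 0.913) whose sign changed on leaving out single libraries (0.24 without normal glucose 3). DBP (chr19:48630030-48637379, minus strand) shares 688 bases with SPHK2, a sphingosine kinase gene on the other strand, at a log2 difference of -0.32 (edgeR adjusted p = 0.163). BHLHE40 (DEC1), an E-box repressor that many stimuli induce, had 116, 125 and 129 CPM in high glucose, against 72.1, 26.5 and 120.3 CPM in normal glucose. The high glucose libraries were close together, while normal glucose 3 lay above high glucose 1 and normal glucose 2 far below all others. The log2 difference was 0.76 (SE 0.463, edgeR adjusted p = 0.297), and it was 0.36 without normal glucose 2 and 1.33 without normal glucose 3 (adjusted p = 0.0524). BHLHE40 (chr3:4978672-4985323, plus strand) shares 1743 bases with its antisense gene BHLHE40-AS1, and reads of that overlap cannot be assigned. BHLHE40-AS1 had 1.12, 1.08 and 1.15 CPM in high glucose, against 0.312, 0.443 and 1.08 CPM in normal glucose (edgeR adjusted p = 0.246). As for BHLHE40, normal glucose 3 was the highest of the normal glucose libraries, and without it the antisense gene was called higher (log2 1.57, adjusted p = 0.016).

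**Figure D2:**
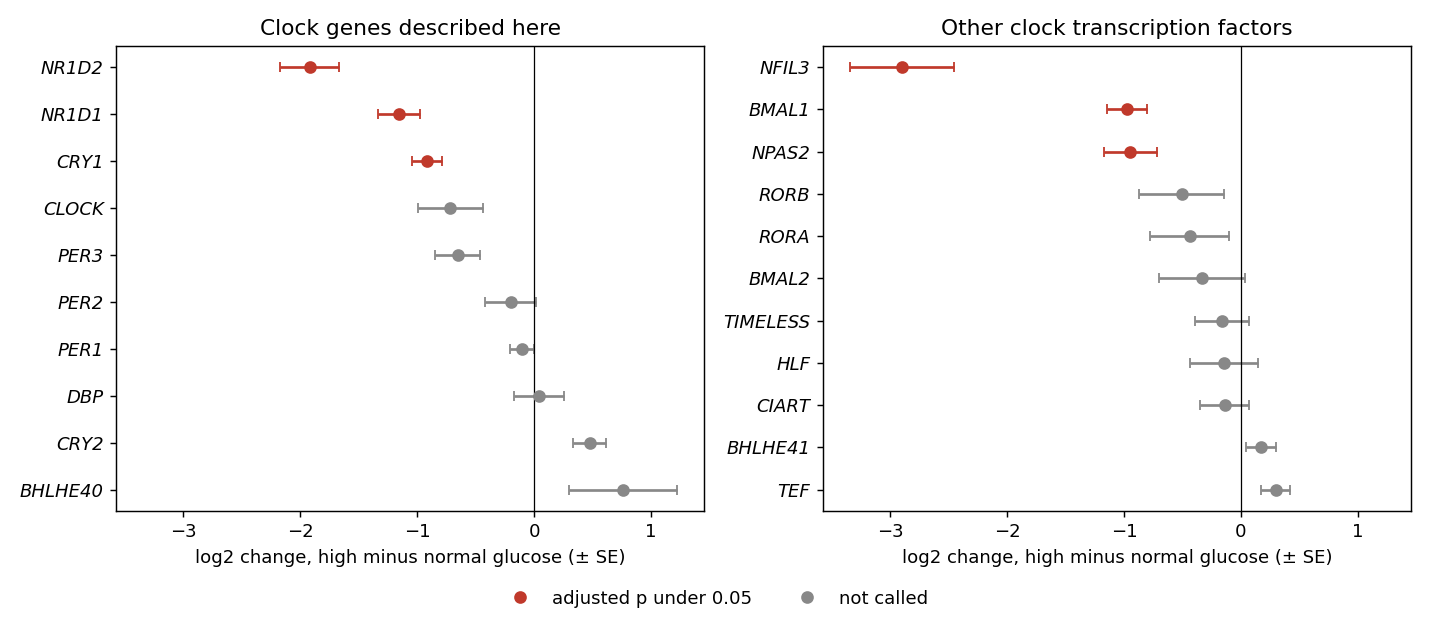
Log2 change, high minus normal glucose, with its SE (horizontal axis) for the 10 clock genes (left) and 11 other clock transcription factors (right), from edgeR. Red points were called and grey points were not: NR1D2, NR1D1 and CRY1 lie left of 0, and BHLHE40 has the widest error bar of the 10 clock genes.

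Levels between genes were compared on the deposited FPKM, which is relative to sequencing depth and to a length that is not defined. The order between genes therefore rests on that length. In high glucose BHLHE40 stood first at 28.3 ± 1.35 FPKM, then NR1D2 at 9.13 ± 0.812, CLOCK at 5.78 ± 2.27 and NR1D1 at 5.75 ± 0.413 FPKM (SD, n = 3). CRY1 followed at 4.79, the PER1 locus at 3.44, CRY2 at 2.66, DBP and PER3 at 1.55 each and PER2 at 0.564 FPKM. Among neighbours in that order, the ranges overlapped for CLOCK with NR1D1 and for DBP with PER3. In normal glucose NR1D2 stood first at 33.5 ± 11.1 FPKM, then BHLHE40 at 16.2 ± 10.4, NR1D1 at 12.5 ± 2.54, CLOCK at 9.21 ± 1.34 and CRY1 at 8.77 ± 0.394 FPKM (SD, n = 3). The PER1 locus followed at 3.60, PER3 at 2.37, CRY2 at 1.86, DBP at 1.46 and PER2 at 0.629 FPKM. There each neighbouring pair from NR1D2 down to CRY1 overlapped, as did PER3 with CRY2 and CRY2 with DBP. NR1D2 and BHLHE40 thus held the first ranks in both media but in opposite order, and in normal glucose their ranges overlapped.

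**Figure D3:**
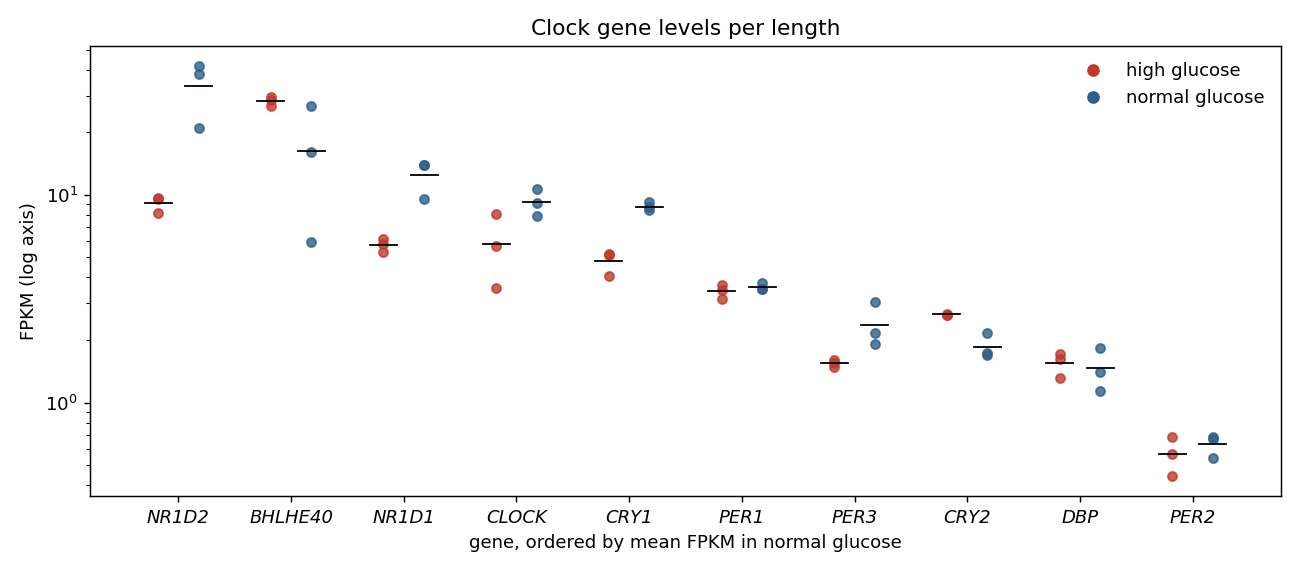
Deposited FPKM (log axis) of each clock gene in the 3 high glucose libraries (red, left of each pair) and the 3 normal glucose libraries (blue, right), with the mean as a black line. Mean levels ran from 0.564 FPKM for PER2 to 28.3 FPKM for BHLHE40 in high glucose, and from 0.629 FPKM for PER2 to 33.5 FPKM for NR1D2 in normal glucose.

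Of 11 other clock transcription factors, 3 fell (27.3% called), with a median log2 change of -0.33. No gene of this list was called higher by edgeR or DESeq2, and 1 had an unadjusted p under 0.05 in that direction with edgeR. NFIL3, the D-box repressor, had 10.7, 10.9 and 9.86 CPM in high glucose, against 77.4, 124 and 32.5 CPM in normal glucose. Every high glucose library was lower, and normal glucose 3 was the nearest. The log2 change was -2.90 (SE 0.447, edgeR adjusted p = 0.008), or -3.26 without normal glucose 3 and -2.39 without normal glucose 2. BMAL1 (ARNTL in the table), the partner of CLOCK and the gene that REV-ERB proteins repress, had 21.2, 24.0 and 25.7 CPM in high glucose, against 41.1, 57.6 and 40.7 CPM in normal glucose. It fell together with both REV-ERB genes, with a log2 change of -0.97 (SE 0.172, edgeR adjusted p = 0.0117). Omitting high glucose 1 gave an adjusted p of 0.0576, omitting high glucose 2 gave 0.0565, and without normal glucose 3 the log2 change was -1.06 (0.00653).

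NPAS2, which can stand in for CLOCK, had 16.5, 11.9 and 13.6 CPM in high glucose, against 19.3, 29.7 and 32.0 CPM in normal glucose. It fell by 0.95 on the log2 scale (SE 0.226, edgeR adjusted p = 0.0286). The call was lost without high glucose 1, 2 or 3 (adjusted p = 0.0633, 0.111 and 0.103) or normal glucose 2 (0.0847), and in both FPKM fits (0.0702 and 0.0632), and was kept without normal glucose 3 (log2 -0.81, 0.043). BHLHE41 (DEC2), the paralog of BHLHE40, was not called, at 55.5 ± 4.90 CPM in high glucose and 49.4 ± 5.37 CPM in normal glucose (SD, n = 3 each; edgeR adjusted p = 0.405). The 3 calls in this list were 1, 1 and 2 without high glucose 1, 2 and 3.

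Enzymes that set the life of clock proteins were listed next, 22 kinases, phosphatases, ubiquitin ligase parts and deacetylating or deubiquitinating enzymes. Of the 21 tested, 2 rose and 5 fell (33.3% called, median log2 change -0.14). SIRT1, a deacetylase that acts on BMAL1 and PER2, fell to 20.8 ± 0.416 CPM in high glucose, against 51.3 ± 12.5 CPM in normal glucose (SD, n = 3 each). Its log2 change was -1.30 (SE 0.181, edgeR adjusted p = 0.00604). USP2, a deubiquitinase of clock proteins and itself a clock output, rose to 19.2 ± 1.61 CPM in high glucose, against 7.61 ± 1.68 CPM in normal glucose (log2 1.33, edgeR adjusted p = 0.00734). The paralogs BTRC and FBXW11 both encode F-box proteins that bind phosphorylated PER. FBXW11 had 126 ± 2.26 CPM in high glucose and 193 ± 11.8 CPM in normal glucose (log2 -0.61, edgeR adjusted p = 0.00817, or 0.0533 without high glucose 2). BTRC moved the other way, with 73.7 ± 18.6 CPM in high glucose and 33.2 ± 7.52 CPM in normal glucose (log2 1.15, edgeR adjusted p = 0.0186). BTRC lost its call without high glucose 2 or 3 (adjusted p = 0.0755 and 0.0756) or normal glucose 1 (0.0658). SKP1, in a locus joined with PPP2CA, CDKL3 and AC104109, was not called (edgeR adjusted p = 0.885). The 7 calls in this list were 4, 2 and 3 without high glucose 1, 2 and 3, and 3, 4 and 12 without normal glucose 1, 2 and 3. Omission of normal glucose 3 gave log2 changes of -1.43 for SIRT1, 1.17 for USP2, -0.66 for FBXW11 and 1.05 for BTRC, all called.

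Of 12 genes known as clock-controlled outputs, 2 rose and 2 fell (33.3% called, median log2 change -0.04). WEE1, the kinase that holds cells before mitosis, fell to 20.04 ± 0.694 CPM in high glucose, against 35.4 ± 1.93 CPM in normal glucose, in a locus shared with AC122179 (log2 -0.82, edgeR adjusted p = 0.00568). KLF10, a zinc finger repressor, rose to 65.9 ± 18.4 CPM in high glucose, against 19.3 ± 7.86 CPM in normal glucose (SD, n = 3 each; log2 1.77, edgeR adjusted p = 0.0123). NOCT, a rhythmic phosphatase of NADPH, fell to 24.8 ± 1.83 CPM in high glucose, against 49.8 ± 11.9 CPM in normal glucose (log2 -1.01, edgeR adjusted p = 0.0149). Omitting high glucose 1, 2 or 3 gave NOCT an adjusted p of 0.0675, 0.0627 or 0.0608. USP2 is the other gene of this list that rose. CCND1, the most abundant gene of the list that was not called, had 339 ± 34.0 CPM in high glucose and 360 ± 122 CPM in normal glucose (edgeR adjusted p = 0.838). Without normal glucose 3 the list had 6 calls in place of 4, and the log2 changes were -0.86 for WEE1, 2.15 for KLF10 and -1.19 for NOCT.

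Glucocorticoid and cAMP signals reset the clock of cultured cells through PER1, so targets of both were listed. Of 9 glucocorticoid receptor genes and targets, 8 were tested, 1 rose and 2 fell (37.5% called, median log2 change -0.21). FKBP5, a chaperone partner of the receptor, had 10.7 ± 0.202 CPM in high glucose and 4.66 ± 1.62 CPM in normal glucose (log2 1.20, edgeR adjusted p = 0.0207). TSC22D3 (GILZ) went the other way, at 15.3 ± 1.44 CPM in high glucose and 27.3 ± 5.53 CPM in normal glucose (log2 -0.84, edgeR adjusted p = 0.02). ERRFI1, a receptor tyrosine kinase inhibitor, had 24.8 ± 1.34 CPM in high glucose and 35.1 ± 3.40 CPM in normal glucose (log2 -0.50, edgeR adjusted p = 0.0312). Without high glucose 1, 2 and 3 the adjusted p was 0.0725, 0.0786 and 0.0762 for FKBP5, 0.0608, 0.0852 and 0.0861 for TSC22D3, and 0.115, 0.127 and 0.0881 for ERRFI1. Without normal glucose 1, TSC22D3 (0.0543) and ERRFI1 (0.0848) also lost their call, and without normal glucose 2 all 3 genes did (0.05 for TSC22D3, 0.0672 for FKBP5 and 0.0756 for ERRFI1). All 3 were called without normal glucose 3, with log2 changes of 1.51 for FKBP5, -0.97 for TSC22D3 and -0.57 for ERRFI1. Without normal glucose 1, 2 and 3 the list had 2, 1 and 4 calls in place of 3, and ERRFI1 also lost its call in the FPKM fits (0.0577 and 0.0513). DUSP1 was not called, at 432 ± 5.45 CPM in high glucose and 339 ± 66.0 CPM in normal glucose (SD, n = 3 each; edgeR adjusted p = 0.147).

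Of 12 genes of the cAMP and CREB pathway, 2 fell (16.7% called, median log2 change -0.30). With all 6 libraries no gene of this list was called higher by edgeR or DESeq2, and 1 had an unadjusted p under 0.05 in that direction with edgeR. ATF1, a CREB family activator, had 22.5 ± 1.37 CPM in high glucose and 43.9 ± 4.16 CPM in normal glucose (SD, n = 3 each; log2 -0.96, edgeR adjusted p = 0.00483). It was called under all 18 alternatives, with the same rounded log2 of -0.96 without normal glucose 3. PDE4D, a cAMP phosphodiesterase, had 2.41, 2.27 and 2.74 CPM in high glucose, against 21.8, 19.7 and 4.33 CPM in normal glucose. Normal glucose 3 lay close to the high glucose libraries. The log2 change was -2.63 (SE 0.558, edgeR adjusted p = 0.0202), and -3.07 without normal glucose 3. PDE4D lost its call without any 1 of the other 5 libraries (adjusted p = 0.06 to 0.0845) and in the FPKM fits (0.084 and 0.0629). CRTC2, in a locus joined with SLC39A1, JTB, RAB13 and AL358472, was not called (edgeR adjusted p = 0.896). The list had 1 call in place of 2 without any 1 of those 5 libraries, and 5 without normal glucose 3, of which 1 was higher and 4 lower.

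**Figure D4:**
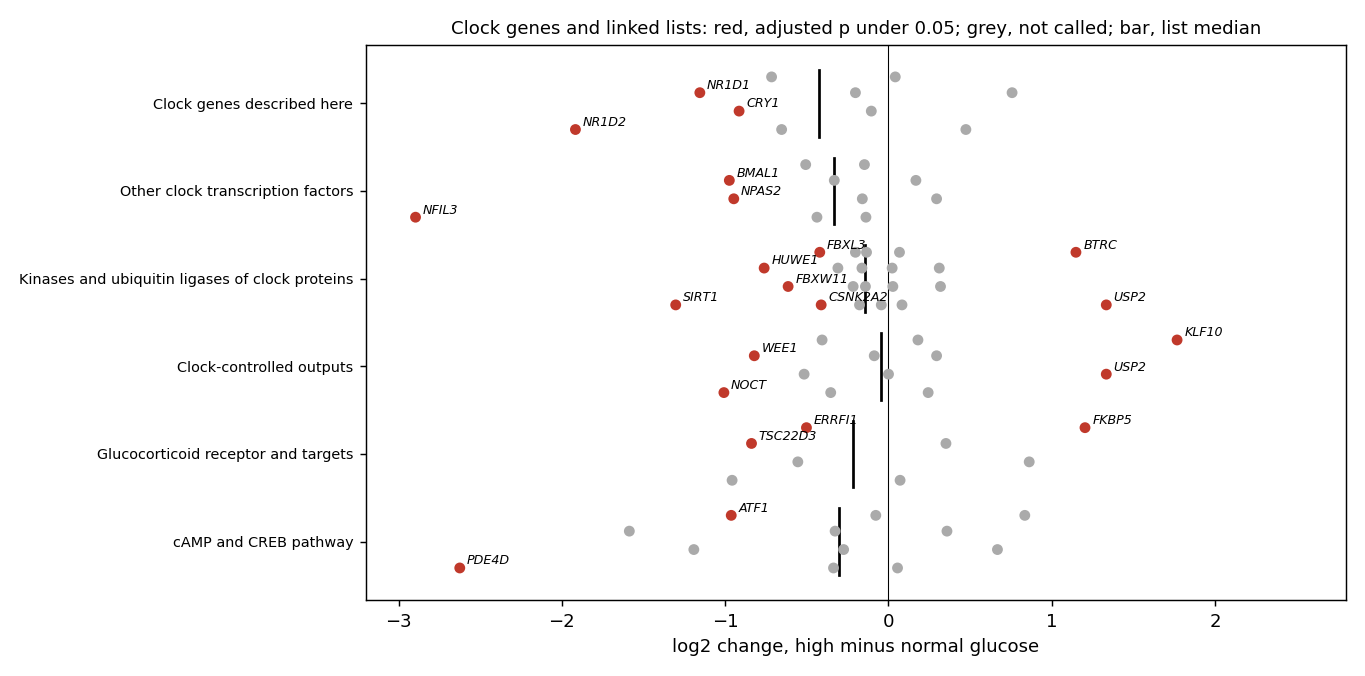
Log2 change, high minus normal glucose (horizontal axis), of each tested gene in 6 lists (rows). Red points with names were called, grey points were not, and the bar is the list median, which lay between -0.43 for the clock genes and -0.04 for the outputs. USP2, and a gene that was not called, appear in 2 lists each.

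Counted once each, the 64 genes of these 5 lists gave 62 tested loci, of which 4 rose and 14 fell (29.0% called, against 25.5% of coding loci). The 18 calls became 8, 6 and 8 without high glucose 1, 2 and 3, and 12, 13 and 29 without normal glucose 1, 2 and 3. The clock members kept 3 calls (NR1D2, NR1D1 and CRY1) without any 1 high glucose library and had 4 without any 1 normal glucose library. Over all tested loci the calls also moved, to 1631 of 26273, 1421 of 26354 and 1507 of 26448 without high glucose 1, 2 and 3. Without normal glucose 1, 2 and 3 they were 2846 of 26301, 2727 of 26321 and 7615 of 26531.

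**Figure D5:**
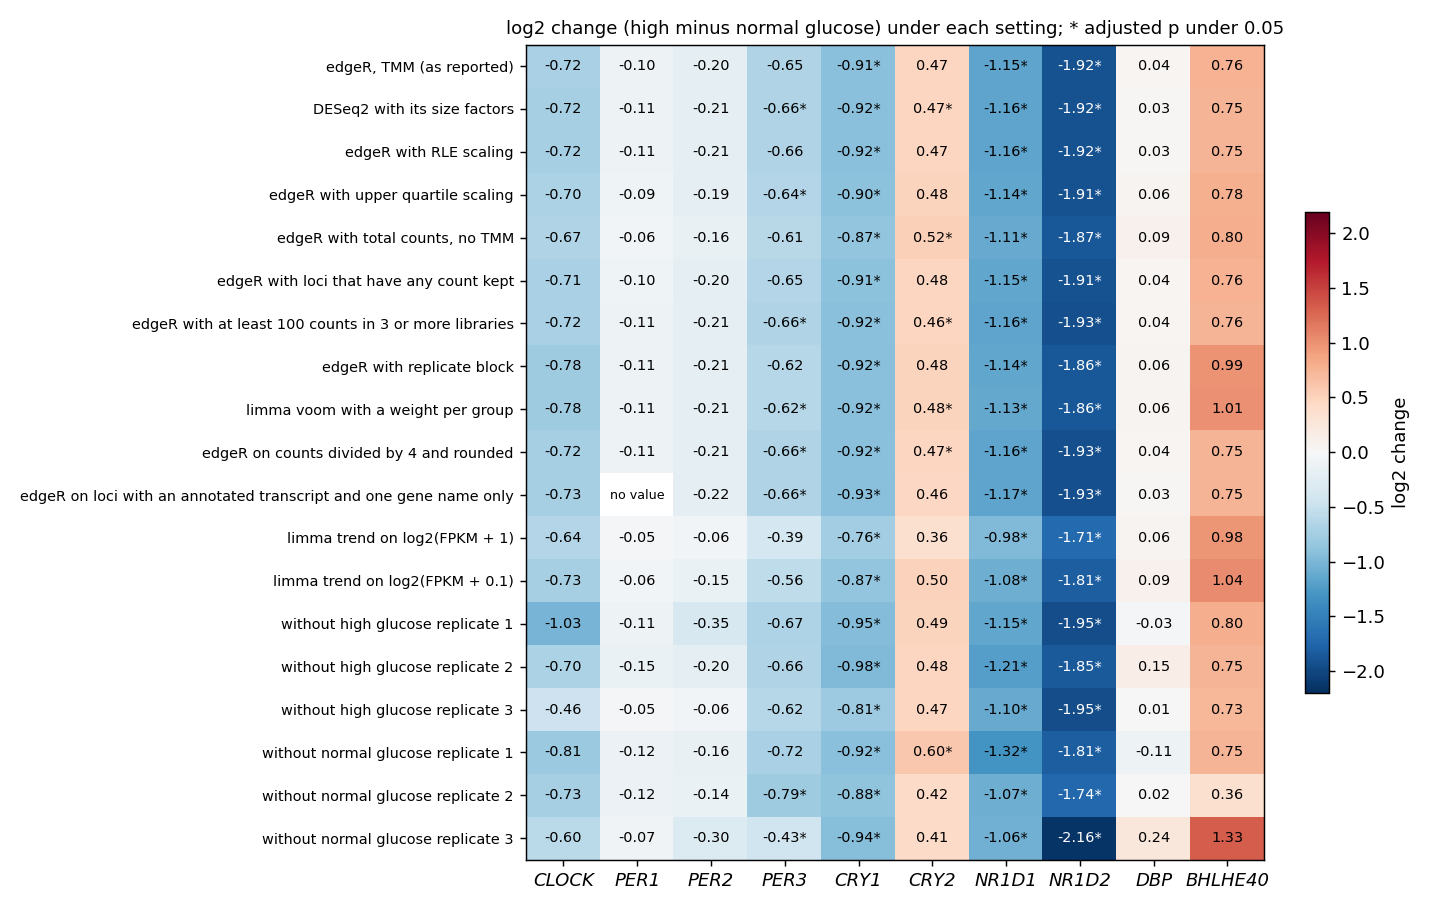
Log2 change, high minus normal glucose, of each clock gene (columns) under the reported fit and 18 alternatives (rows), with the colour scale in log2 units. Stars mark adjusted p under 0.05: NR1D2, NR1D1 and CRY1 carry one in every row, PER3 in 8 and CRY2 in 6 of the 18 alternatives.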

How the data were processed

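RNA of 6 ARPE-19 libraries was sequenced as read pairs. The labels' protocols mention poly(A) selection, but also fractions with and without poly(A) and adipose tissue, so RNA selection is not settled. Per the submitters' processing notes, Bowtie 0.12.2 and a mouse build (mm8) were used, although identifiers, symbols and coordinates in the table are human. The counting tool and use of strand are not given in the sources used here. The count columns deposited by the authors are raw whole numbers per locus. Their FPKM columns, named so in the deposited header, are relative to sequencing depth and to a length that no header or label defines. Counts of 4 were more frequent (9555 values) than of 3 (4210) or 5 (2659), so a fragment may have been counted several times. All 37 mitochondrial loci are at 0.

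Each member was the locus with an annotated transcript and its symbol. Loci were filtered with filterByExpr (25025 kept) and tested in edgeR 4.0.16 (R 4.3.3, TMM, glmQLFit, then a 2-sided glmQLFTest with no covariate). P-values were adjusted over all 25025. SE was taken as the absolute log2 change over the root of its F statistic. Alternatives used limma 3.58.1 (FPKM pseudocounts 1 and 0.1, voom weights), DESeq2 1.42.0, other scalings and filters, counts divided by 4, and omission of each library. The edgeR step was tested on simulated data. Same-numbered libraries had deviations correlated at -0.017 to -0.00076, so no pairing was assumed.

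The members and the lists were chosen with earlier results of these data known. The genes named are the 10 members, genes joined with or overlapping them, and from each list up to 4 called genes with the smallest adjusted p and the most abundant gene that was not called. The marker genes named were chosen after their values were seen. Promoter windows are from RefSeq. Protein sequences were not analysed here, and a gene of the transcription factor list is not reported here.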

Additional observations from a re-analysis of the deposited data

How the results depend on the processing

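NR1D2, NR1D1 and CRY1 kept their direction and call in all 18 alternatives, with log2 changes of -2.16 to -1.71, -1.32 to -0.98 and -0.98 to -0.76. The 3 called members became 5, adding PER3 and CRY2, with DESeq2, with at least 100 counts in 3 or more libraries, with counts divided by 4, and with voom weights per group. In that order, these settings called 7050 of 25025, 4905 of 15493, 5326 of 18748 and 5146 of 25025 loci, against 4906 of 25025 in the reported fit. With 1 library left out, the calls over all loci ran from 1421 to 7615 in place of 4906, and those of the other lists from 6 to 29 in place of 18. Such fits have fewer libraries, and each library left out changes the estimated spread, which was wider in normal glucose (biological coefficient of variation 41%) than in high glucose (27.18%).

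With the replicate number as a block, 2545 loci were called in place of 4906. The same 3 members were called (adjusted p = 0.0214 for NR1D2, 0.0248 for CRY1 and 0.0273 for NR1D1), but NPAS2 (0.081), ERRFI1 (0.0937) and PDE4D (0.062) were not. The libraries share only a number.

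Differences near 0 changed sign, and the cause was not tested. With 1 library left out, DBP ran from -0.11 to 0.24, SKP1 from -0.035 to 0.095, CRTC2 from -0.16 to 0.27, CCND1 from -0.32 to 0.17, TMEM165 from -0.085 to 0.31 and THRA from -0.21 to 0.32 on the log2 scale. In the FPKM fits with pseudocounts 1 and 0.1, CCND1 was at 0.0084 and 0.0094 and THRA at 0.043 and 0.057. THRA was at 0.018 with the block and 0.019 with voom weights. PER1 has no value among loci with a single gene name.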

Other observations

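The table holds 2 short loci without an annotated transcript that carry the PER1 name and lie just below the joined PER1 locus. The locus at chr17:8138710-8138953 (244 bases) had 34, 24 and 18 counts in high glucose, against 17, 20 and 12 counts in normal glucose, and the groups overlapped. The locus at chr17:8139317-8139520 (204 bases) had 4, 8 and 8 counts in high glucose, against 28, 15 and 33 counts in normal glucose. Its groups did not overlap, as for 42.3% of all tested loci on TMM-scaled counts. The counts of both short loci are low and unscaled, and no test is given for them. Neither locus entered the member's value.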
